A study of Homo sapiens with 45 samples.

Results

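ZC3HAV1L, B3GALNT1, SLITRK2, RAMP1 and CD3G are 5 human genes, of 60675 gene rows counted, that were read at or near no count in 293F cells before transfection and were expressed in at least 1 of the AC1 cell lines. They were chosen by their 0 h counts in 293F and by expression in AC1 lines, a list drawn up with results of these data known. Their 0 h levels are therefore given as a description, with no test. Tests are limited to later times and to changes over time, and changes against 0 h still use 0 h counts. All lines are HEK293F cells, a suspension-grown form of the human embryonic kidney line HEK293, and were measured during production of recombinant adeno-associated virus (AAV). AC1.112, AC1.203 and AC1.230 carry the genotype label "WT, clonal", AC1P the label "WT, polyclonal" and 293F the label "WT", so each clonal line stands for 1 clone. Cells grown in Expi293 medium were transfected with TransIT-VirusGEN and 3 plasmids, namely pHelper, RepCap9 and a reporter plasmid with inverted terminal repeats. RNA was taken before transfection (0 h) and 24 h and 72 h after it, from 3 libraries for each line and time, 45 in all, and every line received the same plasmids. The study compared times, and high with baseline producer lines; which line is of which kind, and how the AC1 lines were derived from 293F, is not given in the sources used here.

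Library totals lay between 24727028 and 59837051 counted reads, with a median of 39247411, so that 3 counts over the 9 libraries of 293F correspond to 0.00788 CPM, a library's reads of a gene scaled to a fixed total. A list of 10 HEK293 and embryonic kidney markers summed to 1060 to 1861 CPM in the AC1 libraries and to 1175 to 1672 CPM in the 293F libraries. The largest part came from VIM, with group means of 625 to 1528 CPM. Single markers varied more between groups, EPCAM from 0.0224 to 12.3 CPM, PAX2 from 0.267 to 7.86 and KRT8 from 22.9 to 201. Similar sums therefore do not mean that each marker was alike between lines. The labels do not say whether replicates were separate cultures, so p-values measure the spread between libraries, which may be technical. Levels are in CPM after TMM scaling and are given as mean ± SD of 3 libraries, and ± in all level values below has that meaning. A gene was called in a comparison if edgeR's quasi-likelihood test gave an adjusted p under 0.05 (Benjamini-Hochberg, over all 21242 genes tested) and a fold change of at least 2. All 5 genes passed the filter on low counts, although each passed through the lines in which it is expressed.

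The 5 genes belong to unrelated systems. ZC3HAV1L is a paralogue of ZC3HAV1, the zinc-finger antiviral protein (ZAP) that binds CpG-rich viral RNA and recruits decay factors. B3GALNT1 is the globoside synthase of the P blood group system, which adds N-acetylgalactosamine to globotriaosylceramide. SLITRK2 is a leucine-rich-repeat membrane protein of synapses, whose family binds presynaptic receptor-type tyrosine phosphatases. RAMP1 is a single-pass membrane protein that pairs with the receptor CALCRL to form the receptor for calcitonin gene-related peptide (CGRP). CD3G encodes the gamma chain of CD3, which assembles with the T cell receptor and is known as a T cell gene. None of these roles is a known marker of kidney epithelium, and the genes lie on 5 different chromosomes.

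On GRCh38 with GENCODE release 29, ZC3HAV1L (ENSG00000146858) lies on chromosome 7 from 139025706 to 139036029 on the minus strand, and B3GALNT1 (ENSG00000169255) on chromosome 3 from 161083883 to 161105384 on the minus strand. SLITRK2 (ENSG00000185985) lies on chromosome X from 145817832 to 145829856 on the plus strand. RAMP1 (ENSG00000132329) occupies chromosome 2 from 237858893 to 237912114 and CD3G (ENSG00000160654) chromosome 11 from 118344344 to 118355161, both on the plus strand. Promoter sequences in RefSeq (GRCh38.p14) matched 3 of the 5 genes. They are shown because these genes range from at or near no count to clear expression between these HEK293F lines, and the content of CG pairs differs among them. The part of the promoter sequence in these levels was not tested. Each sequence runs 5′ to 3′ on the gene's own strand, holds the bases upstream of the start site that lie in no annotated exon, and has CG pairs in capitals.
B3GALNT1, chr3:161105385-161105599, minus strand: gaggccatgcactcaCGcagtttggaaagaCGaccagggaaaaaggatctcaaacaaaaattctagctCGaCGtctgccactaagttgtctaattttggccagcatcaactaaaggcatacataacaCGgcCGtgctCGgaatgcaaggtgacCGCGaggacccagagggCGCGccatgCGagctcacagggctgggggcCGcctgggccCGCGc
ZC3HAV1L, chr7:139036043-139036292, minus strand: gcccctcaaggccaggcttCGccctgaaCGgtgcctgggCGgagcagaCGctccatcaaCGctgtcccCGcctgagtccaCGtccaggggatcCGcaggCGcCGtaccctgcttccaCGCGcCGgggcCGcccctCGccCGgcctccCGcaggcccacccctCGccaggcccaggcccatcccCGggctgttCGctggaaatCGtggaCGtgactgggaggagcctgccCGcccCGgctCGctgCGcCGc
SLITRK2, chrX:145817579-145817828, plus strand: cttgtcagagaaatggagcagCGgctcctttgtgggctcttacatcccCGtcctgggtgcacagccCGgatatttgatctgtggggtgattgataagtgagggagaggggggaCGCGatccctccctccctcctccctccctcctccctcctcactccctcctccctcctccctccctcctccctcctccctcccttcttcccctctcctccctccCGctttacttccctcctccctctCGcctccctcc

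RefSeq lists 3 start sites for B3GALNT1, and the stretch shown lies upstream of the outermost, since the windows of the other 2 lie wholly within exons. The upstream 250-base windows held 27 CG pairs for ZC3HAV1L, 20, 26 and 28 for the 3 sites of B3GALNT1 (15 in the stretch shown) and 7 for SLITRK2, against a median of 11 over 35116 promoter windows. As many CG pairs or more occurred in 17.7% of those windows for ZC3HAV1L, in 32.4%, 19.6% and 15.9% for the B3GALNT1 sites and in 58.9% for SLITRK2. The motif GGGCGG, searched on both strands, occurred 3 times in the stretch of ZC3HAV1L and in neither of the other stretches shown, and 42.6% of all windows held it. The B3GALNT1 window with 26 CG pairs held it 2 times. TATAAA and CCAAT, also searched on both strands, occurred in none of the 3 stretches, and in 10.7% and 32% of all windows, and the B3GALNT1 window with 28 CG pairs held CCAAT 1 time.

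ZC3HAV1L was expressed at a near-equal level in every AC1 line and had no count in any 293F library. Counts at 0 h were 515, 439 and 336 in AC1.112, 287, 384 and 469 in AC1.203, 583, 499 and 481 in AC1.230 and 404, 741 and 353 in AC1P, against 0, 0 and 0 in 293F. Mean levels at 0 h were 12.02 ± 0.795 CPM in AC1.112, 12.4 ± 2.57 in AC1.203, 13.8 ± 1.02 in AC1.230 and 11.8 ± 1.33 in AC1P. The order of the 4 AC1 lines is not separated by their spread, since the library values of neighbouring lines overlapped. Over the 36 AC1 libraries of all times the level lay between 9.44 and 18.1 CPM, while the 9 libraries of 293F stayed at 0 throughout. Measured against 3 counts over the 293F group, the AC1 lines were at least 493-fold to 567-fold higher at 0 h.

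B3GALNT1 was expressed in 1 clone and in the polyclonal line, and was at or under 3 counts in every other library. Before transfection the counts were 1418, 1037 and 808 in AC1.112, 1, 0 and 0 in AC1.203, 0, 0 and 0 in AC1.230 and 575, 715 and 487 in AC1P, against 0, 0 and 0 in 293F. The mean level at 0 h was 30.1 ± 2.33 CPM in AC1.112 and 14.6 ± 1.60 CPM in AC1P, and the libraries of these lines did not overlap. Over all 9 libraries, AC1.203 gave 4 counts and AC1.230 gave 1, which is at the level of single reads. The level of AC1P was 48.6% of that of AC1.112 at 0 h, 45.03% at 24 h and 41.7% at 72 h. In bulk RNA, fewer expressing cells and less RNA per cell cannot be told apart.

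B3GALNT1 overlaps NMD3, a ribosome export factor on the opposite strand, by 689 bases at their 5′ ends, and the strand setting of the counting is not given in the sources used here. NMD3 averaged 104 CPM in AC1.112, 139 in AC1.203, 103 in AC1.230 and 92.5 in AC1P at 0 h, and 81.6 CPM in 293F. AC1.203, AC1.230 and 293F each had no more than 1 B3GALNT1 count at that time. The part of NMD3 reads in the B3GALNT1 counts was not tested.

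SLITRK2 was expressed in the clone AC1.203 and, lower, in AC1P. Its counts at 0 h were 373, 364 and 436 in AC1.203 and 82, 170 and 54 in AC1P, while AC1.112 and AC1.230 had 0, 0 and 0 each. The 293F libraries held 2 counts over all times, 1 at 0 h and 1 in replicate 1 at 72 h. The mean level at 0 h was 12.8 ± 0.615 CPM in AC1.203 and 2.32 ± 0.658 CPM in AC1P, with no overlap between libraries. AC1.112 gave 2 counts, both in replicate 3 at 72 h, and AC1.230 none in 9 libraries, which allows up to 0.00798 CPM. AC1P stood at 18.2% of AC1.203 at 0 h, 37.7% at 24 h and 26.8% at 72 h.

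A list of 10 neuron markers summed to 3336 to 6011 CPM in the AC1 libraries and to 125 to 168 CPM in the 293F libraries, and most of the sum came from the neurofilament genes NEFM and NEFL. The sum was high in all 4 AC1 lines, including AC1.112 and AC1.230, where SLITRK2 was at or near 0. By number, 7, 6, 8 and 6 of the 10 markers averaged at least 1 CPM in AC1.112, AC1.203, AC1.230 and AC1P, and 6 in 293F. STMN2, SNAP25, TUBB3 and RBFOX3 had group means of no more than 0.654, 1.19, 1.29 and 2.23 CPM. The part of these markers in the SLITRK2 result was not tested.

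RAMP1 was expressed in every AC1 line with a wider spread between lines than ZC3HAV1L. The libraries at 0 h gave 131, 104 and 89 counts in AC1.112, 319, 170 and 256 in AC1.203, 190, 179 and 190 in AC1.230 and 127, 190 and 112 in AC1P, against 0, 0 and 0 in 293F. Mean levels were 3.04 ± 0.351 CPM in AC1.112, 8.05 ± 2.18 in AC1.203, 4.98 ± 0.830 in AC1.230 and 3.47 ± 0.156 in AC1P. AC1.203 was the highest and AC1.230 followed, with all libraries of AC1.203 above those of AC1.230, while AC1P and AC1.112 overlapped. At 24 h the 293F libraries held 1, 0 and 2 counts, and at 72 h 0, 3 and 0.

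CD3G was highest in the clone AC1.230 and lower in the other AC1 lines. AC1.230 gave 463, 431 and 382 counts at 0 h, AC1.112 gave 67, 59 and 32, AC1P gave 64, 39 and 45 and AC1.203 gave 13, 10 and 10, against 0, 0 and 1 in 293F. These correspond to 11.2 ± 0.698 CPM in AC1.230, 1.43 ± 0.174 in AC1.112, 1.28 ± 0.519 in AC1P and 0.362 ± 0.0701 in AC1.203, against 0.00858 in 293F. The AC1.230 libraries lay above all others, those of AC1.112 and AC1P overlapped, and those of AC1.203 were lower than both but above 293F. AC1P stood at 11.4%, 11.5% and 9.54% of AC1.230 at 0, 24 and 72 h.

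The defining T cell genes beside CD3G were low in the same libraries, while CD8A, LCK and CD4 reached higher group means. CD3D, CD247 and TRAC had counts in 31, 34 and 32 of 45 libraries. CD3D, whose start site lies 1600 bases from that of CD3G, reached at most 0.182 CPM in any group mean, that of AC1.230 at 0 h. Next came 293F at 72 h with 0.157 CPM. CD3E reached at most 0.111 CPM. The summed level of 13 T cell markers without CD3G was 0.748 to 4.41 CPM in the AC1 libraries and 1.85 to 6.60 CPM in the 293F libraries. CD2, CD28 and PTPRC, which mark T cells and leukocytes, stayed at group means of no more than 0.0315, 0.0211 and 0.146 CPM. The co-receptor gene CD8A had group means of 0.708 to 2.75 CPM with counts in 45 of 45 libraries, LCK had 0.0315 to 1.92 CPM and CD4 0.0315 to 0.917 CPM. CD8A thus exceeded CD3G in AC1.203, and the part of these genes in the CD3G result was not tested.

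Scaled to exon length, the highest line at 0 h had 7.86 CPM per kb for ZC3HAV1L, 7.19 for B3GALNT1, 6.52 for RAMP1, 2.93 for CD3G and 1.07 for SLITRK2. SLITRK2, with 11881 exon bases, therefore had the lowest level per length of the 5, and RAMP1, with 1234, a level close to those of ZC3HAV1L and B3GALNT1.

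The first comparison sets the AC1 lines against 293F in libraries taken 24 h and 72 h after transfection. The choice of genes named 0 h for 293F and no time for the AC1 lines, so later AC1 values may have entered it. The genes were chosen as near 0 in 293F at 0 h and passed the filter through the lines that express them, so these calls follow in large part from that choice and are given to show the levels after transfection. At 24 h, 16 of the 20 combinations of gene and AC1 line were called higher than in 293F, and none lower. By line these were 4 of 5 genes in AC1.112, where 8.29% of all genes tested were called higher, 4 of 5 in AC1.203 (5.97%), 3 of 5 in AC1.230 (10%) and 5 of 5 in AC1P (9.03%). At 72 h the count was 15 of 20, with 4 of 5 in AC1.112 (8.17% of all genes called higher), 3 of 5 in AC1.203 (6.46%), 3 of 5 in AC1.230 (8.62%) and 5 of 5 in AC1P (8.13%). The 4 comparisons at each time share the same 293F libraries.

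ZC3HAV1L was higher in every AC1 line at both times. Set against 3 counts over the 293F group, the fold was at least 478 in AC1.112, 601 in AC1.203, 623 in AC1.230 and 609 in AC1P at 24 h. At 72 h the bounds were 602, 543, 651 and 642 for the same lines, with edgeR adjusted p-values between 3.484e-35 and 7.853e-34.

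B3GALNT1 was higher by at least 1381-fold in AC1.112 and at least 619-fold in AC1P at 24 h, and by at least 1263-fold and 522-fold at 72 h. In AC1.203 and AC1.230, as in 293F, it was at or under 3 counts over each group, so no fold is given. SLITRK2 was higher by at least 260-fold in AC1.203 and at least 98.8-fold in AC1P at 24 h (edgeR adjusted p 1.146e-24 and 6.763e-20). At 72 h the ratio to the single 293F count was 1510 in AC1.203 (95% interval 271 to 59681) and 413 in AC1P (73.5 to 16370), and without replicate 1 of 293F, which held that count, the group is at 0. Such intervals are exact, come from the summed counts and cover counting error only.

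RAMP1 was 66.3-fold higher in AC1.112 (22.3 to 325), 124-fold in AC1.203 (42.2 to 606), 150-fold in AC1.230 (51.1 to 732) and 111-fold in AC1P (37.5 to 539) at 24 h, when 293F held 3 counts. At 72 h the ratios were 79.8 (26.97 to 390), 207 (70.5 to 1007), 136 (46.1 to 661) and 95.3 (32.1 to 466) for the same lines. All 3 RAMP1 counts of 293F at 72 h fell in replicate 2. Averaged over the 4 AC1 lines, the fitted log2 fold change of RAMP1 was 6.59 (SE 0.39) at 24 h and 6.74 (SE 0.39) at 72 h. Without replicate 3 of 293F at 24 h, which held 2 of the 3 counts, the 24 h value was 7.44. Without replicate 2 of 293F at 72 h the 72 h value was 9.75, a fit against a group at 0 and therefore no bound.

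CD3G was called higher in all 4 AC1 lines at 24 h and in 3 of them at 72 h. The ratio to 293F at 24 h was 157 in AC1.230 (71.8 to 429), 23.4 in AC1.112 (10.4 to 65.1), 18.5 in AC1P (8.26 to 51.5) and 6.87 in AC1.203 (2.89 to 19.8). At 72 h it was 103 in AC1.230 (57.1 to 206), 14.2 in AC1.112 (7.70 to 29.05), 10.004 in AC1P (5.29 to 20.9) and 2.57 in AC1.203 (1.24 to 5.73). The 72 h comparison of AC1.203 missed the threshold, with a log2 fold change of 1.34 (SE 0.61, edgeR adjusted p = 0.0532). Replicate 2 of 293F at 72 h held 10 of that group's 11 CD3G counts, and without it the log2 fold change of CD3G in AC1.203 was 3.77 and was called. It was also called without replicate 1 of AC1.203 at 72 h (1.72). Averaged over the AC1 lines, the log2 fold change of CD3G at 72 h was 3.77 (SE 0.41) with all libraries and 6.20 without replicate 2 of 293F.

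For the mean over AC1 lines, 3 of 5 genes were called higher at 24 h (7.27% of all genes) and 3 of 5 at 72 h (6.73%). These were ZC3HAV1L, RAMP1 and CD3G. For B3GALNT1 and SLITRK2, some AC1 lines had no count and edgeR gave no usable error for that average, while DESeq2 called all 5 at both times.

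The AC1 lines were also compared with each other after transfection. The genes were chosen for expression in at least 1 AC1 line and passed the filter through such lines. These calls thus follow in part from that choice and are given to show the levels. Of 30 combinations of gene and pair of lines, 16 were called at 24 h and 17 at 72 h. By pair at 24 h, 2 genes were called between AC1.112 and AC1P (4.86% of all genes tested), 3 between AC1.203 and AC1P (10%) and 3 between AC1.230 and AC1P (5.79%). Among the clones, 3 were called between AC1.112 and AC1.203 (11.2%), 3 between AC1.112 and AC1.230 (9.69%) and 2 between AC1.203 and AC1.230 (14%). The counts at 72 h, in that order of pairs, were 2 (3.35%), 4 (12.2%), 3 (5.57%), 4 (13.1%), 2 (8.29%) and 2 (14.5%).

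ZC3HAV1L was called between no lines at either time. It was lower in AC1.112 at 24 h, by a log2 difference of -0.35 against AC1P, -0.32 against AC1.203 and -0.36 against AC1.230 (edgeR adjusted p 0.0159, 0.0207 and 0.00936), all short of 2-fold. At 72 h its level was 13.7 ± 0.364 CPM in AC1.112, 12.2 ± 1.42 in AC1.203, 14.7 ± 1.16 in AC1.230 and 14.7 ± 1.00 in AC1P, and no pair passed the test.

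B3GALNT1 was higher in AC1.112 than in AC1P by a log2 difference of 1.15 (SE 0.11, edgeR adjusted p 2.309e-12) at 24 h and 1.27 (SE 0.11, 4.505e-13) at 72 h. SLITRK2 was higher in AC1.203 than in AC1P by 1.40 (SE 0.20, 4.477e-08) at 24 h and 1.89 (SE 0.20, 1.421e-11) at 72 h. These were 6.30 ± 0.632 CPM in AC1.203 and 2.37 ± 0.296 CPM in AC1P at 24 h, and 11.4 ± 0.161 and 3.06 ± 0.529 CPM at 72 h. Neither pair of lines overlapped in any library at any time.

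CD3G differed in every pair of lines except AC1.112 against AC1P, where the log2 difference was 0.36 at 24 h and 0.54 at 72 h (edgeR adjusted p 0.409 and 0.221). AC1.230 exceeded AC1P by 3.09 (SE 0.27) at 24 h and 3.37 (SE 0.28) at 72 h on the log2 scale, and AC1.203 lay below AC1P by -1.41 (SE 0.37) and -1.94 (SE 0.41). Thinning every library to the smallest total took the 24 h difference of AC1.203 to -0.92 (adjusted p = 0.0525), where the AC1.203 libraries had 10 to 16 counts each as deposited.

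RAMP1 also differed between some AC1 lines. At 24 h its mean was 1.60 ± 0.541 CPM in AC1.112, 3.03 ± 0.426 in AC1.203, 3.70 ± 0.599 in AC1.230 and 2.67 ± 0.429 in AC1P. Only AC1.112 against AC1.230 was called, at a log2 difference of -1.20 (SE 0.21, edgeR adjusted p 3.574e-06). Replicate 3 of AC1.112 was the highest of its group at 24 h, with 2.18 CPM against 1.111 and 1.52. Without it the log2 difference from AC1P was -1.06 and that from AC1.203 -1.21, both then past 2-fold, where all libraries gave -0.74 and -0.91. Leaving out replicate 2 of AC1.203 at 24 h also took the difference of AC1.112 from AC1.203 to -1.04. At 72 h, RAMP1 was higher in AC1.203 than in AC1P by 1.10 (SE 0.21) and lower in AC1.112 than in AC1.203 by -1.37 (SE 0.20).

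Calls of a 2-fold change after transfection were few among the 5 genes, as they were among all genes tested. Averaged over the 4 AC1 lines, 0 of 5 was called at 24 h against 0 h, where 3.49% of all genes were called, 0 of 5 at 72 h against 0 h (6.44%) and 0 of 5 at 72 h against 24 h (4.56%). RAMP1 was nevertheless lower, by a log2 change of -0.78 (SE 0.10, edgeR adjusted p 1.597e-09) at 24 h and -0.72 (SE 0.10, 9.057e-09) at 72 h, short of 2-fold. The genes were chosen with 0 h values known, so changes against 0 h are not independent of that choice. Without a minimum fold, 47.1% of all genes passed the test at 24 h and 55.4% at 72 h against 0 h, and 52.2% at 72 h against 24 h. ZC3HAV1L changed by 0.15 (SE 0.06) at each time, with adjusted p-values of 0.0304 and 0.0322 that passed 0.05 in 20 and 17 of 34 alternative analyses. CD3G changed by -0.38 (SE 0.17, adjusted p = 0.0551) at 24 h and by -0.50 (SE 0.17, adjusted p = 0.0116) at 72 h. For B3GALNT1 and SLITRK2 an average over lines that include lines with no count has no usable error, and the lines that express them are given below.

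Within single lines, 2 of 40 combinations of gene, line and time against 0 h were called, and both were lower at 24 h in AC1.203. The combinations here and at 72 h against 24 h below include B3GALNT1 in AC1.203 and AC1.230, and SLITRK2 in AC1.112 and AC1.230. These had no more than 3 counts in any group, too few for a call. Of all genes tested, 2.46%, 7.13%, 2.19% and 1.42% were called at 24 h in AC1.112, AC1.203, AC1.230 and AC1P, and 4.29%, 4.06%, 6.28% and 2.69% at 72 h. In AC1.203 at 24 h, 4.89% of all genes were called lower. These tests are not independent of the choice of genes, which used the 0 h values, and SLITRK2 and RAMP1 had their highest 0 h level in AC1.203. The 24 h libraries of AC1.203 gave 208, 237 and 312 counts of SLITRK2, with 373, 364 and 436 at 0 h. In CPM these were 6.54, 5.58 and 6.78 at 24 h and 12.3, 13.4 and 12.6 at 0 h, without overlap. The log2 change was -1.02 (SE 0.19, edgeR adjusted p 1.183e-05). This lies at the 2-fold threshold, and it was -0.98 without replicate 2 of AC1.203 at 0 h and -0.94 without replicate 2 at 24 h, with adjusted p-values of 0.000163 and 0.000422.

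RAMP1 in AC1.203 had 3.33, 2.54 and 3.21 CPM at 24 h, against 10.5, 6.28 and 7.37 CPM at 0 h. It fell by 1.41 on the log2 scale (SE 0.19, edgeR adjusted p 1.276e-08), and the change ranged from -1.56 to -1.18 over the alternatives. At 72 h SLITRK2 in AC1.203 had 11.6, 11.3 and 11.4 CPM, a log2 difference of 0.86 (SE 0.19, adjusted p = 0.000122) from 24 h and of -0.16 (adjusted p = 0.562) from 0 h. RAMP1 reached 4.41, 4.56 and 5.06 CPM in the same libraries, 0.63 (SE 0.20, adjusted p = 0.00564) above 24 h. At 72 h against 24 h, 0 of 20 combinations were called, with 2.62% of all genes called in AC1.112, 10.1% in AC1.203, 1.94% in AC1.230 and 1.56% in AC1P.

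In the other lines RAMP1 was lower at 24 h in AC1.112, by -0.91 (SE 0.22, edgeR adjusted p = 0.00120), and did not pass the test in AC1.230 (-0.43, 0.0915) or AC1P (-0.37, 0.205). Without replicate 3 of AC1.112 at 24 h, the RAMP1 change in that line was -1.22 and was called. By 72 h RAMP1 was lower than at 0 h in all 4 lines, by -0.74 in AC1.112, -0.78 in AC1.203, -0.69 in AC1.230 and -0.66 in AC1P, with adjusted p-values of 0.00447, 0.000782, 0.00303 and 0.0141.

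SLITRK2 in AC1P, by contrast with AC1.203, had 2.60, 2.04 and 2.49 CPM at 24 h and 2.16, 3.04 and 1.76 CPM at 0 h, which overlap (log2 change 0.01, edgeR adjusted p = 0.990). At 72 h the AC1P libraries gave 3.43, 2.45 and 3.30 CPM (0.38, adjusted p = 0.190). B3GALNT1 in AC1.112 had 33.5 ± 2.07 CPM at 24 h and 28.6 ± 0.581 CPM at 72 h, log2 changes of 0.15 (SE 0.11) and -0.07 (SE 0.11) from 0 h that did not pass the test. In AC1P B3GALNT1 stood at 15.1 ± 1.26 CPM at 24 h and 11.9 ± 0.839 CPM at 72 h, and was lower at 72 h than at 24 h by -0.34 (SE 0.12, adjusted p = 0.0397), short of 2-fold. CD3G in AC1.230 had 7.58 ± 0.421 CPM at 24 h and 8.57 ± 0.488 CPM at 72 h, all 6 libraries below the 3 at 0 h, and the log2 changes of -0.57 and -0.39 did not pass the test (adjusted p = 0.0527 and 0.165). ZC3HAV1L was higher in AC1P by 0.32 at 24 h and 0.31 at 72 h (adjusted p = 0.0474 and 0.0487).

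Whether the response differed between AC1 lines was tested directly. An F test over the 4 lines passed at 24 h for SLITRK2 (adjusted p = 0.0266) and RAMP1 (0.00497), 2 of 5 genes where 33.6% of all genes passed, and at 72 h for 0 of 5 (10.7%). Between AC1.203 and AC1P, the response at 24 h differed by -1.03 on the log2 scale for SLITRK2 (SE 0.28, edgeR adjusted p = 0.00468) and by -1.04 for RAMP1 (SE 0.28, adjusted p = 0.00328), 2 of 5 genes where 3.36% of all genes were called. The same difference at 72 h was called for 0 of 5 (0.546% of all genes), and that between AC1.112 and AC1P for 0 of 5 at 24 h (0.461%) and at 72 h (0.00471%). These 4 pairwise comparisons were added after the values were seen. The SLITRK2 F test did not pass without replicate 2 (0.0641) or 3 (0.0508) of AC1.203 at 0 h, replicate 2 of AC1.203 at 24 h (0.0832), replicate 1 (0.0704) or 3 (0.0962) of AC1P at 0 h, or replicate 1 (0.0778) or 3 (0.0594) of AC1P at 24 h.

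**Figure D1:**
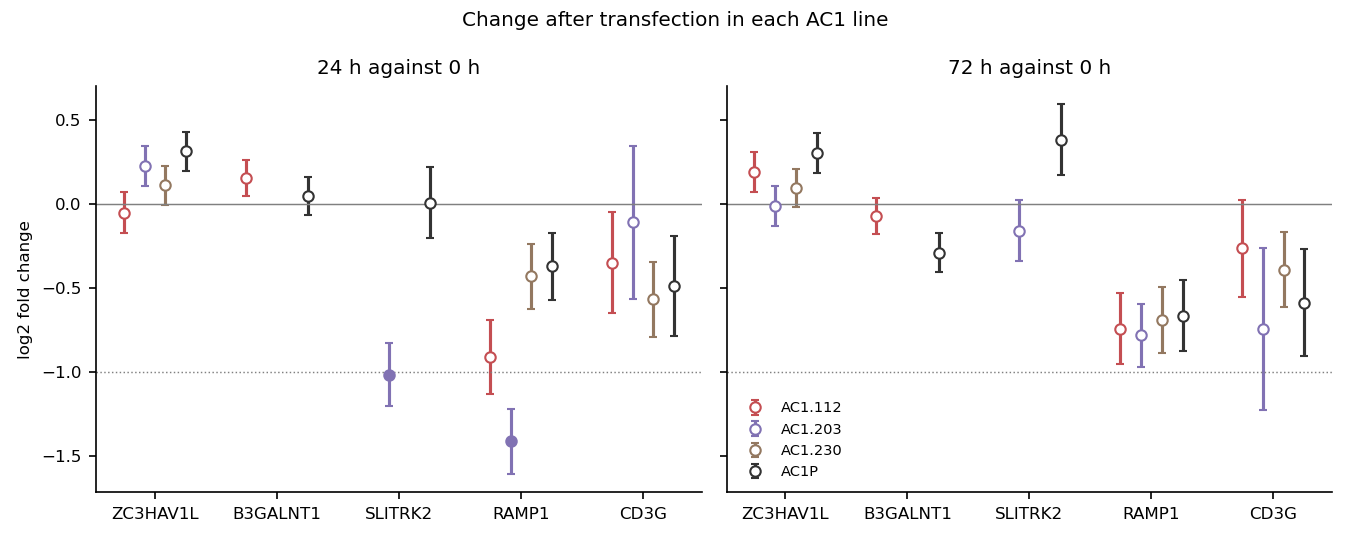
Log2 fold change against 0 h (y axis) at 24 h and 72 h for each gene and AC1 line (x axis), with bars of 1 standard error. Filled points were called, the dotted line marks a 2-fold lower level, and lines with no more than 3 counts of a gene in every group are left out. The 2 filled points are SLITRK2 (-1.02) and RAMP1 (-1.41) in AC1.203 at 24 h, and RAMP1 lies below 0 in every line at both times.

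The known partners of the 5 gene products were counted in lists, for the mean of the AC1 lines against 293F, where 7.27% of all genes were called higher and 14.9% lower at 24 h, and 6.73% and 15.4% at 72 h. The median log2 difference over all genes was -0.06 at 24 h and -0.03 at 72 h. Of 17 genes of the ZAP system, 0 were higher and 1 lower at each time, with medians of -0.05 and -0.07. The lower one was PARP14, a mono-ADP-ribosyltransferase, with 0 CPM at 0 h in AC1.112 and AC1.230, 7.25 in AC1.203 and 2.34 in AC1P, and 8.39 CPM in 293F. ZC3HAV1 itself, 73690 bases from ZC3HAV1L, had 87.1 CPM in AC1.112, 99.8 in AC1.203, 69.7 in AC1.230 and 91.4 in AC1P at 0 h, and 76.6 CPM in 293F. The log2 difference of ZC3HAV1 from 293F was 0.01 (SE 0.04, edgeR adjusted p = 0.898) at 24 h and 0.12 (SE 0.04, adjusted p = 0.0140) at 72 h, short of 2-fold.

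Among 19 enzymes of globo-series and related glycolipid pathways that were tested, 0 were higher and 6 lower at 24 h, and 1 was higher and 6 lower at 72 h, with list medians of -0.18 and -0.35. A4GALT, which makes the substrate of B3GALNT1, was lower by -2.19 (SE 0.15) at 24 h, and had 0.597 to 2.86 CPM in the AC1 lines and 4.78 CPM in 293F at 0 h. B3GALT5, which extends globoside, was lower by -2.11 (SE 0.20), ST3GAL1, a sialyltransferase, by -1.98 (SE 0.11) and B4GALNT1, the GM2 and GD2 synthase, by -1.41 (SE 0.09). ST8SIA1, the GD3 synthase, was the 1 gene higher at 72 h (1.30, SE 0.44), and it was not called without replicate 1 or replicate 2 of 293F at 72 h or without the line AC1.203.

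Of 10 tested genes of the SLITRK family, related synaptic organisers and their receptors, 2 were higher and 5 lower at 24 h and 1 was higher and 4 lower at 72 h, with medians of -0.95 and -0.48. LRRTM2, a leucine-rich-repeat synaptic protein, was higher by 1.93 (SE 0.12), while SLITRK1 (-3.13, SE 0.58), SLITRK3 (-1.93, SE 0.14) and the neurotrophin receptor NTRK3 (-3.89, SE 0.78) were lower at 24 h. PTPRF, a presynaptic phosphatase at the 2-fold threshold (1.00, SE 0.06), was the other gene higher at 24 h and was not called without replicate 3 of 293F at that time. SLITRK3 showed, as SLITRK2 did, its highest AC1 level in AC1.203, with 9.83 CPM at 0 h, 2.51 in AC1.112, 2.44 in AC1.230 and 2.42 in AC1P, but 293F had 7.76 CPM. The phosphatase PTPRD, a SLITRK ligand, was nearly absent from AC1.203 (0.134 CPM), the line highest in SLITRK2, with 6.22 to 12.98 CPM in the other AC1 lines and 7.67 in 293F.

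In the CGRP and adrenomedullin system, 0 of 10 tested genes were higher and 3 lower at 24 h, and 0 were higher and 2 lower at 72 h, with medians of -0.09 and 0.15. CALCRL, the receptor that RAMP1 pairs with, had 0.899 CPM in AC1.112, 2.08 in AC1.203, 1.97 in AC1.230 and 1.40 in AC1P, and 1.90 CPM in 293F at 0 h. RAMP2, which turns CALCRL into an adrenomedullin receptor, was lower by -1.95 (SE 0.17) at 24 h and -2.46 (SE 0.16) at 72 h. At 0 h RAMP2 had 0.910 CPM in AC1.112, 3.51 in AC1.203, 2.31 in AC1.230 and 1.42 in AC1P, and 8.09 CPM in 293F, and RAMP3 had no count in any library. CALCB, a CGRP peptide gene, was lower by -1.42 (SE 0.08) and ADM2, an adrenomedullin-like peptide gene, by -4.48 (SE 0.56) at 24 h.

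The T cell receptor list had only 6 of 15 genes above the filter on low counts, of which 0 were higher and 2 lower at each time, with medians of -0.69 and -0.89. Without replicate 1 of 293F at 72 h, 1 was lower at that time. Over time in the AC1 lines, 1 of the 6 was higher at 24 h and 3 of the 6 were higher at 72 h against 0 h, where 2.08% and 6.18% of all genes were called higher, and the list median at 72 h was 1.05 against 0.02 over all genes. Among them were CD247, the zeta chain of CD3 (2.45, SE 0.94 at 72 h), and LCK (1.28, SE 0.35). CD247 had group means of 0 to 0.184 CPM over all lines and times, so its change rests on few reads. The count at 72 h was 1 with the AC1 libraries fitted alone or without the line AC1.203, and 5 without the line AC1P. At 24 h it was 0 with the AC1 libraries alone, after thinning, or with any 1 of the clones left out. LCK, a T cell kinase, had at most 0.654 CPM in a group mean of an AC1 line, and 0.352, 1.34 and 1.92 CPM in 293F at 0, 24 and 72 h.

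By the mean of the AC1 lines, none of the tested genes beside the 5 was called higher than in 293F. Neighbours were not tested in single lines. For each of the 5 genes the 3 nearest protein-coding genes by start site on each side were taken, 30 in all, of which 18 were tested. Against 293F, 0 of 18 were called higher by the mean of the AC1 lines and 4 lower at 24 h, and 0 higher and 3 lower at 72 h, with medians of -0.17 and -0.06, where 7.27% and 6.73% of all genes were called higher and 14.9% and 15.4% lower. The lower genes at 24 h were RAB17 (-3.87, SE 0.81), MPZL2 (-3.20, SE 0.24), RBM44 (-1.81, SE 0.47) and ARL14 (-1.81, SE 0.60). MPZL2, a cell adhesion gene 79808 bases from CD3G, was highest among AC1 lines in AC1.230, with 4.61 CPM at 0 h, 0.574 in AC1.112, 0.705 in AC1.203 and 0.814 in AC1P, and 5.96 CPM in 293F. NMD3, which starts 688 bases from B3GALNT1, was higher by 0.40 (SE 0.05) at 24 h and 0.75 (SE 0.05) at 72 h, under 2-fold. SCLY, 201996 bases from RAMP1, had 8.82 CPM in AC1.203 at 24 h and 7.10 at 72 h, against 4.33 and 3.11 in 293F. The other AC1 lines had 2.55 to 3.44 CPM of SCLY at 24 h and 3.08 to 3.41 at 72 h. Within the AC1 lines over time, ARL14, with 202 counts over all libraries, was higher at 24 h (1.44, SE 0.59) and 72 h (2.32, SE 0.55) than at 0 h, and MPZL2 lower at 24 h (-1.28, SE 0.22). Thinning to the smallest total, among other alternatives, ended the ARL14 calls. Of the 30 neighbours, 7 had no more than 3 counts over the 0 h libraries of 293F and 2 no more than 3 over all 45 libraries.

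The rule that describes the 5 genes was applied to all rows to see how many genes are like them. With no more than 3 counts over the 3 libraries of 293F at 0 h and a mean of at least 1 CPM in an AC1 line, 44 genes met it, 0.0725% of all rows, and 30 of them were protein coding. B3GALNT1 ranked 1 of 44 by its highest AC1 level, ZC3HAV1L 3, SLITRK2 4, CD3G 6 and RAMP1 8. Between them stood MT-TM (17.9 CPM), a mitochondrial transfer RNA, GRIN1 (12.03 CPM), an NMDA receptor subunit, and CRABP1 (8.40 CPM), a retinoic acid binding protein. The last gene inside the threshold was LINC01687 at 1.05 CPM and the first outside H3Y1 at 0.909 CPM. With a minimum of 0.5 CPM 75 genes met the rule, and with 2 CPM 26.

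Of the 44, 20 reached 1 CPM in 1 AC1 line, 7 in 2, 6 in 3 and 11 in all 4. ZC3HAV1L and RAMP1 were in the group of 11, along with CLEC3A, FOXL2 and TCF15. The most common single-line pattern was AC1.203 alone, with 10 genes, followed by AC1.230 alone with 6. B3GALNT1 was the 1 gene with the pattern AC1.112 and AC1P, SLITRK2 was 1 of 3 with AC1.203 and AC1P, and CD3G 1 of 3 with AC1.112, AC1.230 and AC1P. Of these 44 genes, 32 remained at or under 3 counts in 293F at 24 h and 25 at 72 h.

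The genes whose pattern over the 15 groups of line and time was most like each of the 5 were found by Pearson's r of group means. These values are a description, since groups of the same line at different times are not independent points. For ZC3HAV1L these were ZNF595 (0.998), NEFM (0.996) and ZNF682 (0.995), and ZNF595 had 40.1 to 48.5 CPM in the AC1 lines and 4.83 CPM in 293F at 0 h. SLITRK2 was closest to DECR1 (0.990), a mitochondrial enzyme of fatty acid oxidation, then RYR1 (0.952) and MLH3 (0.951). DECR1 had 21.4 CPM in AC1.203, 2.50 in AC1P, 0 in AC1.112 and 0.00756 in AC1.230, and 0.0414 CPM in 293F at 0 h. B3GALNT1 was closest to BRD3OS (0.972), OR51E2 (0.968) and SP100 (0.955), RAMP1 to GAS1 (0.995), PRR16 (0.987) and ARSJ (0.984), and CD3G to ABHD13 (0.971), NAXD (0.968) and GNPTG (0.966). Among the 5 genes themselves, r was 0.970 between ZC3HAV1L and RAMP1, the genes with at least 1 CPM in all 4 AC1 lines at 0 h, and -0.22 between SLITRK2 and CD3G. All 5 were chosen as near 0 in 293F and expressed in AC1 lines. A high r between genes expressed in all 4 AC1 lines therefore follows in large part from that choice.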

How the data were processed

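Messenger RNA was sequenced from 45 libraries of 5 HEK293F lines at 3 times (poly(A) RNA, a stranded library kit, per the labels' protocols). The authors deposited whole-number read counts per Ensembl gene for each library, made with HISAT2, Subread and featureCounts on GRCh38, per the submitters' processing notes. Which versions, strand setting and annotation were used is not given in the sources used here. Rows followed the file of each library, and groups came from the sample labels.

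Symbols were matched for 56558 of 60675 gene IDs, and 57055 were in GENCODE release 29, from which coordinates and exon lengths came. Promoter windows came from RefSeq (GRCh38.p14). Counts were analysed in R 4.3.3 with edgeR 4.0.16 (filterByExpr with a minimum count of 10 and total of 15, TMM scaling, robust quasi-likelihood fit over 15 groups in 1 model), which tested 21242 genes; the script was first tested on simulated counts. DESeq2 1.42.0 was an alternative. Library totals of 24727028 to 59837051 set the precision, and counting intervals and the limit of 3 counts over a group cover counting error only, since reads carry no molecular identifiers. Python 3.11.15 with pandas 2.3.3, scipy 1.17.1 and matplotlib 3.10.9 made descriptions and figures.

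The 5 genes, the lists and the tests were chosen with earlier results of these data known. All 5 genes are described. In lists, up to 4 called genes with the largest change were named, together with genes named for their role in the system after their values were seen, and the 3 most similar genes per member by r. Alternatives were other normalisation, filters, DESeq2, thinning to the smallest total, the replicate block, fits without 293F or without 1 AC1 line, and leaving out each replicate. A called gene of the T cell receptor list is not reported here. Reads of the plasmids and the virus were not analysed here.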

Additional observations from a re-analysis of the deposited data

Results flagged for a closer look

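An F test of whether the response at 24 h differed among the 4 AC1 lines was passed by 2 of the 5 genes. It was passed by 33.6% of all genes tested, a near share, so the count does not set the 5 genes apart. The difference in response between AC1.203 and AC1P was called for 3.36% of all genes tested. For SLITRK2 the response of AC1.203 was lower than that of AC1P by -1.03 on the log2 scale (SE 0.28, edgeR adjusted p = 0.004677), and the F test over the 4 AC1 lines gave an adjusted p of 0.02663. RAMP1 differed between the same lines by -1.04 (SE 0.28, edgeR adjusted p = 0.003282), with an F test adjusted p of 0.004966. SLITRK2 was lower at 24 h in 3 of 3 AC1.203 libraries, and the AC1P libraries of both times overlapped. With SLITRK2 the difference was under 2-fold in 6 of 18 alternatives and with RAMP1 in 4 of 18, and the adjusted p stayed under 0.05 in all of them. The F test of SLITRK2, however, did not pass in 7 of 30 alternatives. In AC1.203 at 24 h, 7.13% of all genes tested were called, the highest share of the 8 comparisons of a line with its own 0 h libraries, and SLITRK2 and RAMP1 had been chosen with their 0 h values, which were highest in this line. The part of this wider response in the results of SLITRK2 and RAMP1 was not tested.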

How the results depend on the processing

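Levels of the 5 genes moved by less than 1 SD in 200 of 200 alternatives. Most of these left out 1 of 3 libraries, which cannot move a mean by 1 SD of the same 3. Only the alternative with DESeq2 size factors, 1 for each of 50 levels, could have moved further. Of 156 tests of single genes, 2257 of 2290 alternatives kept the direction and the side of the threshold, and 21 further tests with adjusted p of 0.05 or more, whose sign turned, are given no direction. The count called for the mean of the AC1 lines against 293F was 3 in the fit reported and 5 with DESeq2 at both 24 h and 72 h. The count for single lines against 0 h was 2, 1 with no filter on low counts and 1 to 3 when leaving out replicates. For the mean of the AC1 lines at 72 h against 24 h it was 0, and 1 (B3GALNT1) without the line AC1.230, an average that includes AC1.203 with 3 counts at 24 h. Per line at 72 h against 24 h it was 0, and 0 to 1 when leaving out replicates (B3GALNT1 in AC1.203, at or under 3 counts). The count for differences in response between 2 lines was 2, 1 after thinning to the smallest total and 0 to 2 when leaving out replicates, and that of the F test at 24 h was 2 and 1 to 2. Genes of the same kind numbered 44, 75 at 0.5 CPM and 26 at 2 CPM. SLITRK2 in AC1P at 24 h against 0 h, 0.01 on the log2 scale, lay between -0.14 and 0.27 when leaving out replicates. The cause of these changes was not tested.

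Replicate numbers did not pair samples: deviations of same-numbered libraries had a median correlation of -0.00085 over 315 pairs of groups and none over 0.1. With the replicate block no count of calls changed. SLITRK2 in AC1.203 at 24 h was -1.02 and RAMP1 -1.42 with the block (adjusted p 1.835e-05 and 1.863e-08), and RAMP1 over the AC1 lines was -0.78 at 24 h and -0.72 at 72 h. Libraries of a group differed beyond sampling noise, with a chi-square per degree of freedom of 4.08 to 23.6. Depth limits CD3G in AC1.203 and all values of 293F, which rest on 0 to 11 counts per group.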
